A study of Homo sapiens with 12 samples.

Results

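The SOX genes examined here were 9 transcription factors chosen by name as SOX factors of stem and neural cells, with earlier results of these data known. The genes were SOX1, SOX2, SOX3, SOX4, SOX9, SOX11, SOX13, SOX15 and SOX21. They were 9 of the 58575 genes with a read count, and 8 of them were among the 17747 genes that passed a filter on low counts and were tested. SOX1 did not pass it. The cells were 201B7, an established human iPSC line, grown feeder-free on iMatrix511, and RNA-Seq was performed on Day 5 on 3 libraries for each of 4 conditions. Cond 1, the control, was the usual maintenance culture in StemFit medium. In Cond 2 (low nutrient) the StemFit had been heated at 56 °C for 30 min. In Cond 3 (differentiation) the medium was DMEM with 10% FBS, MEM NEAA and GlutaMax. The paper places the start of the heated medium on an earlier day than that of the serum. Between Cond 2 and Cond 3, medium and length of exposure therefore cannot be told apart. In Cond 4 (physical stimulus) the cells were pipetted 20 times at passaging and then cultured as in Cond 1. All conditions shared the same line and Y-27632 in the medium at passaging. A single line limits the comparison to that line, and p-values measure only the spread between these wells.

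SOX proteins bind DNA through an HMG box, a domain that bends the double helix, and usually act beside a partner factor. SOX2 pairs with OCT4 in pluripotent cells and stays on in neural progenitors, where SOX1 and SOX3, the other members of its subgroup SoxB1, act with it. SOX21 belongs to SoxB2, whose proteins bind like sites but repress, while SOX4 and SOX11 of subgroup SoxC act in progenitors that become neurons. SOX9 (SoxE) acts in neural crest, glia and cartilage, SOX13 (SoxD) has no activation domain of its own, and SOX15 (SoxG) is found in pluripotent cells and placenta.

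Library totals lay between 16441148 and 21871503 counts. The cell type label was checked on pluripotency genes: all 18 primed pluripotent markers, SOX2 among them, had a mean of at least 1 TPM in Cond 1, among them LIN28A at 1689 ± 101 TPM, DPPA4 at 681 ± 20.5 TPM and NANOG at 45.9 ± 1.93 TPM (SD, n = 3). POU5F1, which encodes OCT4, stood at only 1.32 ± 0.275 TPM in Cond 1, beside 161 ± 7.31 TPM of its processed pseudogene POU5F1P3 and 27.3 ± 0.775 TPM of its copy POU5F1B. The level of this partner of SOX2 is therefore uncertain in these counts, since reads can be split over near-identical copies. For the 9 SOX genes the overlap was small. Between 0.195% and 4.84% of the 31-base words of their transcripts, highest in SOX13, occurred in another gene.

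The SOX genes took different directions, and the promoter sequences of the 4 that frame the results are shown first. These were SOX2, the most abundant member, SOX21, the member with the largest fitted change, SOX4, which fell in both changed media, and SOX3, which fell in one and rose in the other. Promoters of 6 of the 9 genes were found in the RefSeq table (GRCh38.p14). SOX9, SOX11 and SOX15 were not in it. Each line is the 250 bases before the RefSeq start site, 5′ to 3′ on the strand of the gene, and capitals mark the letters of a CCAAT box on either strand (CCAAT or ATTGG).
SOX2 (chr3:181711675-181711924, plus strand): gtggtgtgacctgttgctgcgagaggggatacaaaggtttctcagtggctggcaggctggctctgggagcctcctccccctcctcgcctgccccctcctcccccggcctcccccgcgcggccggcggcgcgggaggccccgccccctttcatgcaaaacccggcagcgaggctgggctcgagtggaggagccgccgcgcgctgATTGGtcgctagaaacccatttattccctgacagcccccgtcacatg
SOX21 (chr13:94712546-94712795, minus strand): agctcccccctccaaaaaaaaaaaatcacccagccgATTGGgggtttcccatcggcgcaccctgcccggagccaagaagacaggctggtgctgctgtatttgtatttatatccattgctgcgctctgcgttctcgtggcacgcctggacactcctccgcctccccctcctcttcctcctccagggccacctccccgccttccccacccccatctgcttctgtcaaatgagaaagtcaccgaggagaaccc
SOX4 (chr6:21593501-21593750, plus strand): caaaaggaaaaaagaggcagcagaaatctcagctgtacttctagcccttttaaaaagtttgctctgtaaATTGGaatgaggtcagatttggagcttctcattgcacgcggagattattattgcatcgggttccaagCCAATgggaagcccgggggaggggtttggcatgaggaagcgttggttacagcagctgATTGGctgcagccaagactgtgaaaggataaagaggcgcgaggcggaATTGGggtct
SOX3 (chrX:140505070-140505319, minus strand): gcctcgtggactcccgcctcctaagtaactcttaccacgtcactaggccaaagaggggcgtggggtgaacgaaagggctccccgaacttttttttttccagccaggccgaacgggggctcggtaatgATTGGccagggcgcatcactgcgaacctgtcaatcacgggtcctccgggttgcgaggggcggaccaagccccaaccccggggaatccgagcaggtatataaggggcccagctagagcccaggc

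The CCAAT box is a short element bound by the factor NF-Y in many promoters. SOX4 held 4 matches, which began 181, 114, 57 and 10 bases before its start, and SOX2, SOX3 and SOX21 held 1 each, while SOX1 and SOX13 held 0. Of 34943 RefSeq promoters of this length, 32.04% held at least 1 match. The letters ACAAT or ATTGT, only some of the forms of a SOX site, were in 0 of the 6 promoters and in 24.67% of all. The exact letters TATAAA or TTTATA were in that of SOX21 only, beginning 146 bases before its start, against 10.75% of all. Other forms of a SOX site or a TATA box were not searched, so their absence is not shown. The octamer ATGCAAAT, searched on both strands, was in 0 of the 6 and in 1.631% of all promoters. The GC content was 48.8% in SOX4, 58.8% in SOX21, 61.6% in SOX3, 68.8% in SOX2 and 82% in SOX1, against a median of 58.0% over all promoters. These matches are descriptions of letters in a window.

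The first comparison asked how the heated medium changed the SOX genes. In Cond 2, 5 of the 8 tested members rose (SOX2, SOX9, SOX11, SOX15 and SOX21), 2 fell (SOX3 and SOX4) and 1 (SOX13) did not pass the test. A gene was called at an adjusted p below 0.05 in edgeR's quasi-likelihood test with Benjamini-Hochberg adjustment over all genes tested. Over all genes tested, 20.9% were called in this comparison, 10.8% higher and 10.1% lower. A DEG is here a gene called in this way with a fold change above 2. The paper defined its DEGs with limma instead, by that fold and a p-value below 0.05. SOX15 and SOX21 were DEGs in Cond 2, against 4.34% of all genes. SOX11 was called and passed this fold with limma on log2(TPM + 1), but missed the fold in the edgeR fit of all libraries. In edgeR, SOX15 missed the fold without Cond 1 replicate 1 or Cond 2 replicate 1. The median fitted log2 fold change of the 8 members was 0.67, beside 0.00018 over all genes tested. For 7 of the 8 the TPM values of the libraries did not overlap with those of Cond 1, against 35.7% of all genes tested. As the members were chosen with earlier results known, these shares and those of the later comparisons describe them and are not a test.

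In Cond 3, the serum-containing medium, 5 of the 8 rose (SOX2, SOX3, SOX9, SOX11 and SOX21), 2 fell (SOX4 and SOX13) and SOX15 did not pass the test. Called genes made up 38.4% of all genes tested here, 19.5% higher and 18.8% lower. SOX4, SOX9 and SOX21 were DEGs, against 8.16% of all genes, and the median log2 fold change of the members was 0.49. The TPM values of the libraries did not overlap with Cond 1 for 8 of the 8 members, against 48.6% of all genes tested. SOX2, SOX9, SOX11 and SOX21 rose in both media, as did 5.54% of all genes tested, and SOX4 fell in both, as did 4.58%. SOX3 fell in Cond 2 and rose in Cond 3, which held for 1.43%. These counts share the Cond 1 libraries. In bulk RNA, fewer cells of a type and less RNA per cell cannot be told apart, so none of these values says whether each cell changed.

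**Figure D1:**
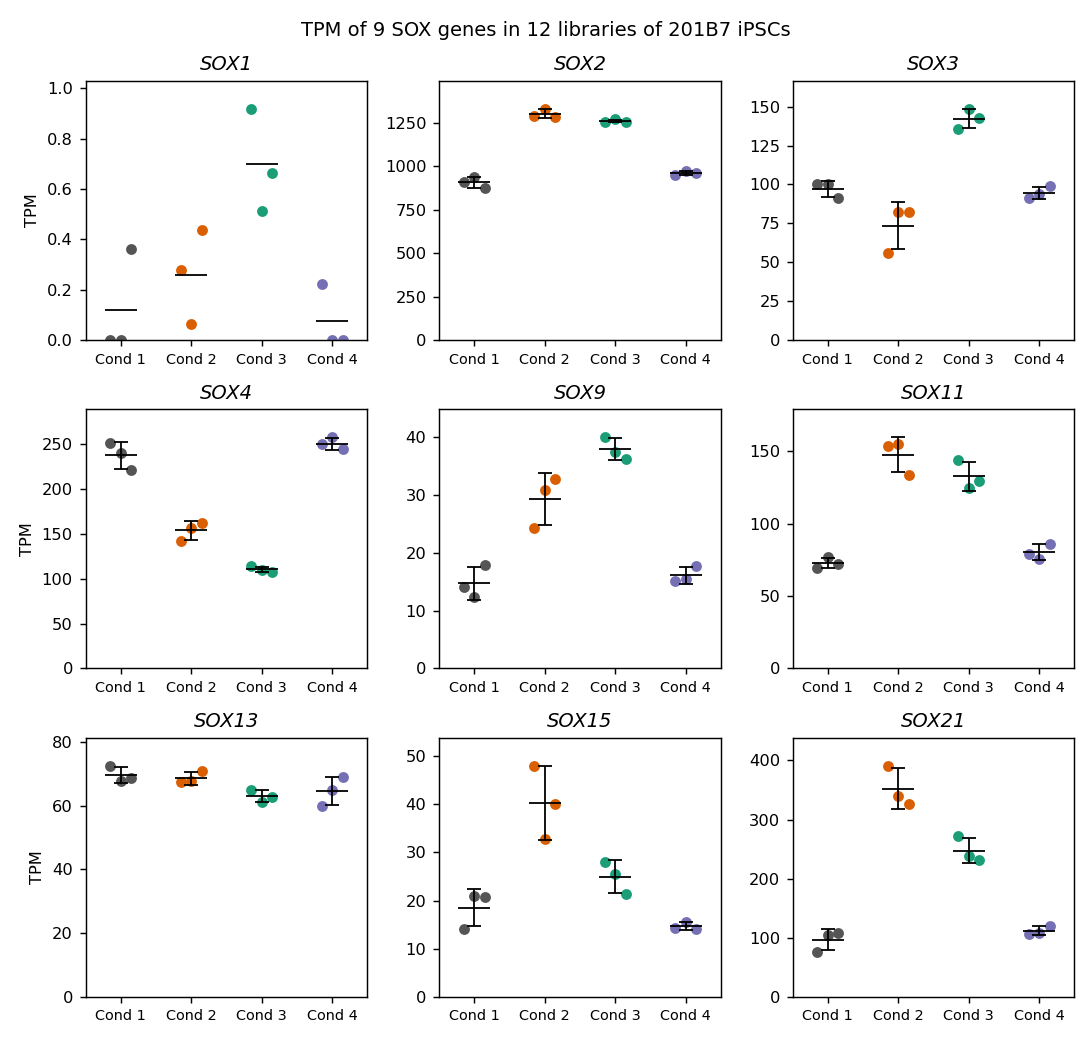
TPM (vertical axes, from 0) of the 9 SOX genes in each of 12 libraries, with 1 point per library in Cond 1 to Cond 4 and black lines for the mean and SD of 3 libraries (mean only for SOX1). SOX21 rose from 96.7 TPM in Cond 1 to 352 in Cond 2, while SOX4 fell from 238 to 154 there and to 110 in Cond 3.

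SOX2 (ENSG00000181449; chr3:181711925-181714436 in GRCh38, 1 exon) was the highest SOX gene of every condition. Its TPM in the Cond 1 libraries was 909, 938 and 878, and in Cond 2 it was 1292, 1333 and 1287. Cond 3 held 1259, 1272 and 1258 TPM and Cond 4 held 949, 972 and 960. All libraries of Cond 2 and Cond 3 lay above all those of Cond 1 and Cond 4. SOX2 rose on the log2 scale by 0.44 (SE 0.042, edgeR adjusted p = 5.37e-08) in Cond 2 and 0.45 (SE 0.042, adjusted p = 1.89e-08) in Cond 3, or 1.35-fold and 1.36-fold. By mean TPM, SOX2 ranked 116 of 60617 genes in Cond 1, 77 in Cond 2, 79 in Cond 3 and 100 in Cond 4. Between Cond 3 and Cond 2 the fitted difference was 0.012 with a 95% interval of -0.075 to 0.099 on the log2 scale (edgeR adjusted p = 0.853). The 3 TPM values of Cond 3 were nevertheless all below those of Cond 2, and the sign of this difference depended on the scale (-0.046 with limma on log2(TPM + 1)).

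SOX3 (ENSG00000134595; chrX:140502985-140505069, minus strand, 1 exon), a SoxB1 gene of neural progenitors, moved in opposite directions in the 2 changed media. In Cond 1 its TPM was 100, 100 and 91.4. In Cond 2 it was 56.2, 82.1 and 82.2, so that replicate 1 stood below the others. In Cond 3 it was 136, 148 and 143, and in Cond 4 it was 91.3, 93.8 and 98.9. The Cond 2 libraries lay below all others and the Cond 3 libraries above all others. The log2 fold change was -0.49 (SE 0.096, edgeR adjusted p = 5.09e-04) in Cond 2 and 0.52 (SE 0.093, adjusted p = 1.03e-04) in Cond 3. Cond 3 exceeded Cond 2 by 1.02 (SE 0.095, adjusted p = 1.48e-08), a 2.02-fold difference and the only one between these media to pass the DEG threshold among the members. The last difference stayed called but was under 2-fold without Cond 2 replicate 1 (0.87), without Cond 3 replicate 2 (0.98) and with limma on log2(TPM + 1) (0.97). Leaving out Cond 2 replicate 1 moved the value of Cond 2 against Cond 1 to -0.35, and limma on log2(TPM + 1) did not call it (adjusted p = 0.0931).

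SOX1 (ENSG00000182968; chr13:112067149-112071706), the third SoxB1 gene and a marker of early neuroectoderm, was barely present. Its counts were 0, 0 and 6 in Cond 1, 4, 1 and 6 in Cond 2, 16, 8 and 10 in Cond 3, and 3, 0 and 0 in Cond 4. Every Cond 3 library exceeded every library of the other conditions, at a mean of 0.699 TPM against 0.120 in Cond 1. Without the filter on low counts, edgeR gave an adjusted p = 0.0852 for Cond 3 against Cond 1, while limma on log2(TPM + 1) gave an adjusted p = 0.0312. A library of Cond 1 with 0 counts allows up to 3 counts, which corresponds to 0.157 or 0.180 CPM, for counting error only. As SOX1 was at or near this limit in Cond 1, no fold is given.

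SOX21 (ENSG00000125285; chr13:94709622-94712545, minus strand, 1 exon), the SoxB2 repressor, had the largest fitted change of the members in Cond 2. It stood at 76.3, 105 and 109 TPM in Cond 1, at 391, 339 and 326 in Cond 2, at 271, 239 and 231 in Cond 3, and at 106, 109 and 120 in Cond 4. The libraries of Cond 2, Cond 3 and the control did not overlap with each other. In Cond 2 the log2 fold change was 1.78 (SE 0.105, edgeR adjusted p = 1.28e-11), a 3.43-fold rise, and 1.32 (SE 0.104, adjusted p = 1.10e-09) in Cond 3, a 2.50-fold rise. Cond 3 was lower than Cond 2 by -0.46 (SE 0.0996, adjusted p = 8.74e-04), which limma called on log2(TPM + 1) (adjusted p = 0.0318) and not on log2(TPM + 0.1) (-0.51, adjusted p = 0.0631). The ratio of SOX2 to SOX21 transcripts, on the TPM scale, was 9.63 ± 2.02 in Cond 1, 3.73 ± 0.366 in Cond 2, 5.14 ± 0.436 in Cond 3 and 8.62 ± 0.551 in Cond 4 (SD, n = 3).

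SOX21-AS1, a long non-coding gene, is read from the opposite strand and in RefSeq starts 171 bases from the start of SOX21, inside the SOX21 promoter sequence shown above. Its TPM was 19.2, 25.4 and 26.8 in Cond 1 and 78.1, 70.0 and 67.9 in Cond 2. In Cond 3 it was 55.5, 53.1 and 56.3, and in Cond 4 21.7, 26.7 and 26.4. The order of the media was that of SOX21. On the log2 scale it rose by 1.51 (SE 0.106, edgeR adjusted p = 2.85e-10) in Cond 2 and 1.18 (SE 0.106, adjusted p = 9.08e-09) in Cond 3. In GENCODE release 44 the genes overlap but share 0 exonic bases. Whether reads were counted by strand is not given in the sources used here, so reads from unannotated parts of either gene cannot be told apart.

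SOX2-OT, the long non-coding gene whose span contains SOX2 on the same strand, was low. It had 0.614, 0.408 and 0.577 TPM in Cond 1 against 1.26, 1.33 and 0.794 in Cond 2, a log2 fold change of 0.99 (SE 0.240, edgeR adjusted p = 0.00410). In Cond 3 it had 0.573, 0.889 and 0.494 TPM and was not called (log2 fold change 0.25, adjusted p = 0.452), whereas SOX2 itself rose there. SOX9-AS1 was called higher in Cond 3 (log2 fold change 1.33, SE 0.460, adjusted p = 0.0256) at a mean of 0.379 TPM. MPDU1, which overlaps SOX15 on the opposite strand by 35 exonic bases, was not called in any comparison.

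**Figure D2:**
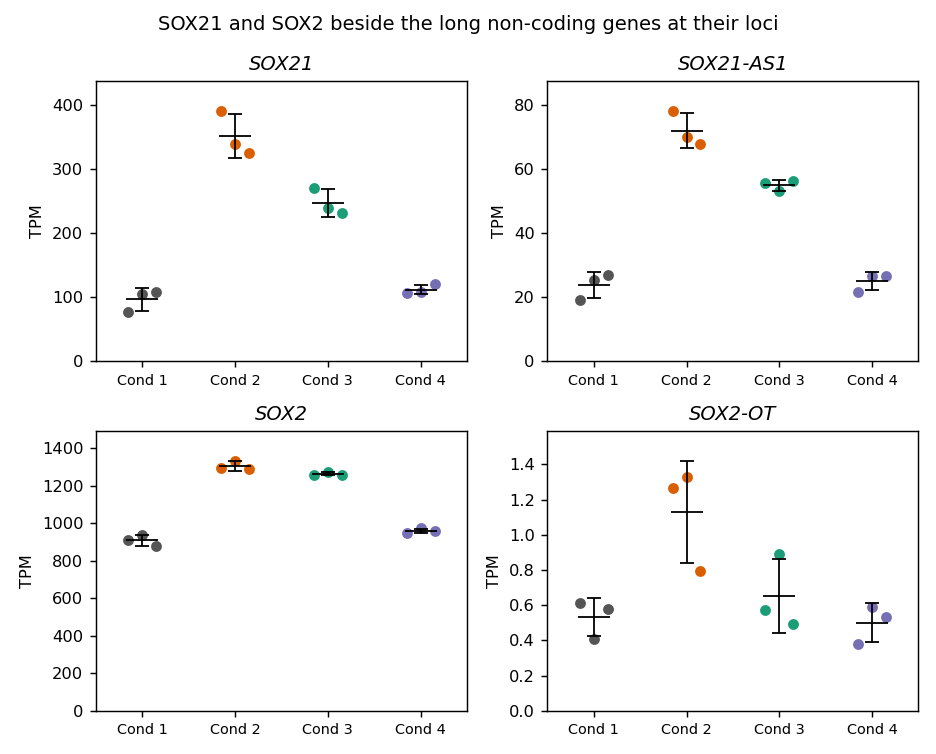
TPM (vertical axes, from 0) of SOX21, SOX21-AS1, SOX2 and SOX2-OT in each library of the 4 conditions, with the mean and SD of 3 libraries as black lines. SOX21-AS1 followed SOX21, at 72.0 TPM in Cond 2 and 55.0 in Cond 3 against 23.8 in Cond 1, while SOX2-OT was called higher in Cond 2 and not in Cond 3.

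SOX4 and SOX11, the SoxC pair, went in opposite directions in both changed media. SOX4 (ENSG00000124766; chr6:21593751-21598619, 1 exon) had 252, 240 and 222 TPM in Cond 1, 142, 157 and 163 in Cond 2, 114, 109 and 108 in Cond 3, and 250, 258 and 244 in Cond 4. Its libraries fell into 3 levels, with Cond 1 and Cond 4 on top and Cond 3 lowest. The log2 fold change was -0.71 (SE 0.053, edgeR adjusted p = 7.45e-10) in Cond 2 and -1.13 (SE 0.054, adjusted p = 2.41e-13) in Cond 3, 1.64-fold and 2.20-fold decreases. Cond 3 was also lower than Cond 2, by -0.42 (SE 0.054, adjusted p = 1.55e-06).

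SOX11 (ENSG00000176887; chr2:5692384-5701385, 1 exon) had 69.6, 76.9 and 71.9 TPM in Cond 1 and 154, 155 and 134 in Cond 2. In Cond 3 it had 144, 125 and 130, and in Cond 4 79.0, 75.9 and 86.2. The libraries of both changed media lay above all those of Cond 1 and Cond 4 and overlapped with each other. SOX11 rose by 0.94 on the log2 scale (SE 0.069, edgeR adjusted p = 5.81e-10) in Cond 2 and 0.84 (SE 0.069, adjusted p = 1.98e-09) in Cond 3. The difference between these media was -0.097, with a 95% interval of -0.237 to 0.043 (edgeR adjusted p = 0.278), and it was called without Cond 2 replicate 3 (-0.17, adjusted p = 0.0471). Summed, SOX4 and SOX11 stood at 311 ± 15.04 TPM in Cond 1, 302 ± 9.04 in Cond 2, 243 ± 12.8 in Cond 3 and 331 ± 2.41 in Cond 4. Their ratio, SOX4 over SOX11, was 3.27 ± 0.299 in Cond 1 and 3.13 ± 0.284 in Cond 4, against 1.05 ± 0.150 in Cond 2 and 0.833 ± 0.0418 in Cond 3. In the 2 changed media the pair was thus present at nearly equal TPM, with SOX11 above SOX4 in every Cond 3 library.

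**Figure D3:**
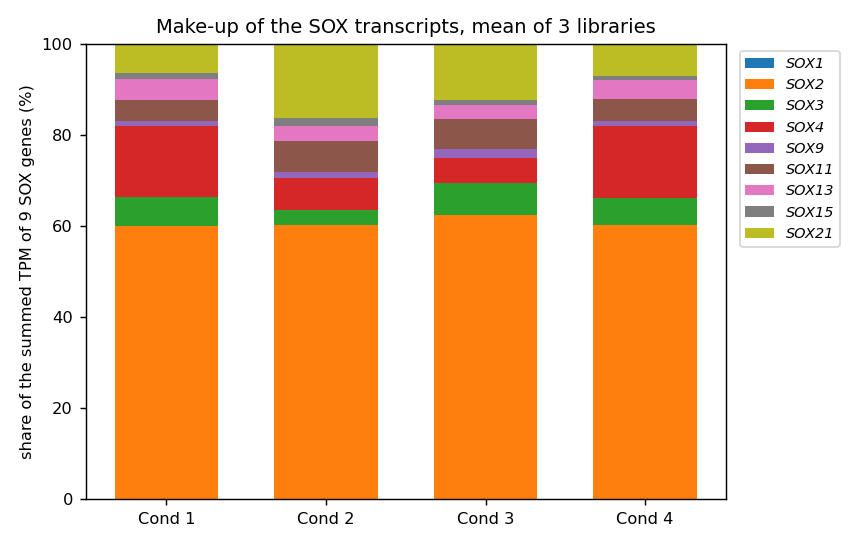
Share (vertical axis, %) of each of the 9 SOX genes in their summed TPM, as stacked means of 3 libraries per condition. SOX2 kept near 60% in all conditions, while SOX4 went from 15.7% in Cond 1 to 7.10% in Cond 2 and 5.46% in Cond 3, and SOX21 from 6.38% to 16.2% and 12.2%.

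The summed level of the 9 genes was 1516 ± 41.8 TPM in Cond 1, 2170 ± 30.96 in Cond 2, 2022 ± 33.7 in Cond 3 and 1593 ± 24.7 in Cond 4 (SD, n = 3). Most of it was SOX2, whose share of the sum was 59.9% in Cond 1, 60.1% in Cond 2, 62.5% in Cond 3 and 60.3% in Cond 4. In second place stood SOX4 in Cond 1 and Cond 4 and SOX21 in Cond 2 and Cond 3. Below them, SOX3, SOX21, SOX11 and SOX13 formed a group in Cond 1 in which each gene overlapped with the next, between 69.7 and 97.3 TPM. In Cond 3 SOX4 stood below SOX21, SOX3 and SOX11. The sums are on the TPM scale, which in Cond 2 ran above the TMM-normalized fit. On the log2 scale SOX2 rose there by 0.52 with limma on log2(TPM + 1), against 0.44 in edgeR.

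SOX9 (ENSG00000125398; chr17:72121020-72126416), the neural crest and cartilage factor, was low in Cond 1 with 14.0, 12.3 and 17.9 TPM. It had 24.2, 30.9 and 32.8 TPM in Cond 2, 39.98, 37.5 and 36.3 in Cond 3, and 15.1, 15.4 and 17.7 in Cond 4. Cond 3 lay above Cond 2 and both above the others, without overlap. The log2 fold change was 0.89 (SE 0.125, edgeR adjusted p = 1.03e-05) in Cond 2 and 1.33 (SE 0.124, adjusted p = 1.53e-08) in Cond 3, 1.86-fold and 2.51-fold. The difference of 0.43 between them (SE 0.118, adjusted p = 0.00543) was not called by limma on log2(TPM + 1) (adjusted p = 0.126).

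SOX15 (ENSG00000129194; chr17:7588178-7590094, minus strand) rested on 105 to 374 counts per library, the fewest of the tested members. Its TPM was 14.0, 20.9 and 20.7 in Cond 1, 48.0, 32.7 and 40.1 in Cond 2, 28.1, 25.5 and 21.4 in Cond 3, and 14.4, 15.6 and 14.2 in Cond 4. The spread within Cond 1 and Cond 2 was wide for their means. In Cond 2 the log2 fold change was 1.04 (SE 0.173, edgeR adjusted p = 1.01e-04), a 2.05-fold rise. It was under 2-fold, though still called, without Cond 1 replicate 1 (0.86) or Cond 2 replicate 1 (0.87). In Cond 3 it was 0.40 (SE 0.176, adjusted p = 0.0747), with a 95% interval of 0.040 to 0.768, although the 3 libraries all exceeded those of Cond 1. Cond 3 was lower than Cond 2 by -0.63 (SE 0.169, adjusted p = 0.00469), which limma on log2(TPM + 0.1) did not call (-0.68, adjusted p = 0.0563).

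SOX13 (ENSG00000143842; chr1:204073115-204127743, 16 exon blocks) was the steadiest of the tested members. It had 72.6, 67.8 and 68.7 TPM in Cond 1, 67.3, 67.6 and 71.0 in Cond 2, 65.1, 61.3 and 62.7 in Cond 3, and 60.0, 65.1 and 68.9 in Cond 4. Cond 2 overlapped with Cond 1, at a log2 fold change of -0.11 with a 95% interval of -0.230 to 0.013 (edgeR adjusted p = 0.217). The fall in Cond 3 was -0.17 (SE 0.059, adjusted p = 0.0236). This call was lost when any of 4 single libraries was left out and with limma on log2(TPM + 1) (adjusted p = 0.193), and the value stayed between -0.20 and -0.14 in all alternatives.

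**Figure D4:**
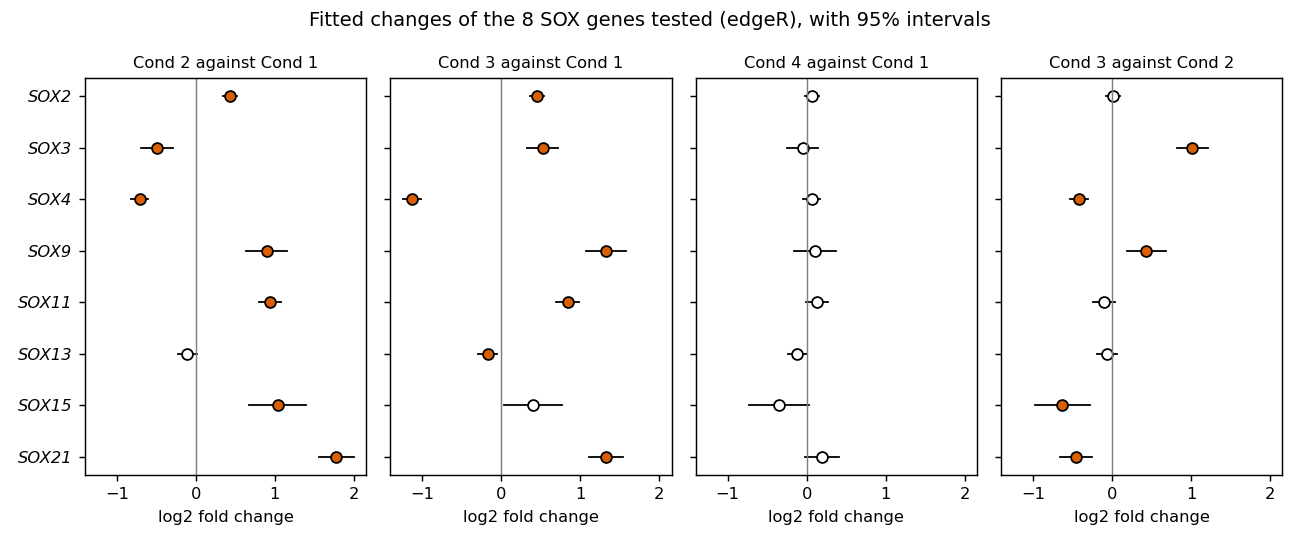
Fitted log2 fold change (horizontal axes) of the 8 tested SOX genes in 4 comparisons, with 95% intervals, filled where the edgeR adjusted p was below 0.05. Every interval of Cond 4 against Cond 1 includes 0, while those of SOX21 lie at 1.56 to 2.00 in Cond 2 and 1.11 to 1.54 in Cond 3.

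The mechanical treatment of Cond 4 was compared with the control in the same way. In edgeR 0 of the 8 members were called, against 0.0282% of all genes tested, and 0 had an unadjusted p below 0.05. DESeq2 and limma called 0 of the 8 as well. The log2 fold changes lay between -0.35 (SOX15) and 0.19 (SOX21), with a median of 0.066. The 95% intervals bounded the change of SOX2 to between -0.020 and 0.155, that of SOX4 to -0.044 to 0.174 and that of SOX21 to -0.024 to 0.413 on the log2 scale. For SOX15 the interval was wider, -0.729 to 0.035. SOX2 was the only member whose Cond 4 libraries did not overlap with Cond 1 (949 to 972 against 878 to 938 TPM), as was so for 11.9% of all genes tested.

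Set directly against each other, Cond 3 and Cond 2 differed in 5 of the 8 members. These conditions also differed in length of exposure, which cannot be told apart from the medium here. SOX3 and SOX9 were higher in Cond 3, and SOX4, SOX15 and SOX21 were lower, while SOX2, SOX11 and SOX13 did not pass the test. Of all genes tested, 38.2% were called, 19.0% higher and 19.2% lower. SOX3 was the 1 DEG among the members, against 8.77% of all genes. The TPM values did not overlap between Cond 3 and Cond 2 for 7 of the 8 members (all but SOX11), against 47.6% of all genes tested. Among these were SOX2 and SOX13, whose fitted log2 differences were only 0.012 and -0.064. This count is on the TPM scale, which in Cond 2 ran above the TMM-normalized fit.

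Of 10 further SOX genes, 7 were tested. SOX12, the third SoxC gene, had means of 151, 165, 136 and 154 TPM in Cond 1 to Cond 4 and fell in Cond 3 (log2 fold change -0.17, edgeR adjusted p = 0.0306). SOX5, a SoxD gene of cartilage, rose in Cond 2 from 0.824 to 1.71 TPM (log2 fold change 0.96, adjusted p = 0.0107). SOX8, at means of 9.35 to 11.4 TPM, and SOX6, SOX14, SOX18 and SOX30, at means of 0.078 to 1.72 TPM, were not called. SOX10, the neural crest and glial partner of SOX9 in SoxE, had no count row. Mean values of 5.22, 10.6, 9.34 and 4.77 TPM were listed for Cond 1 to Cond 4. With limma on log2(TPM + 1) SOX10 rose by 0.90 in Cond 2 (adjusted p = 0.00914) and by 0.73 in Cond 3 (adjusted p = 0.0145). SOX7 and SOX17, genes of endoderm, had at most 0.542 TPM in any library.

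The genes around the SOX factors were followed in lists, and their counts stand beside the 20.9% of all genes tested called in Cond 2 and the 38.4% called in Cond 3. Among 21 partners and co-bound factors of SOX2, 10 rose and 5 fell in Cond 2, with a median log2 fold change of 0.21, and 4 rose and 4 fell in Cond 3, with a median of 0.065. The 8 of 21 called in Cond 3 are close to the share over all genes. OTX2, a forebrain and epiblast factor, had 98.5 TPM in Cond 1, 318 in Cond 2 and 193 in Cond 3, and rose in both (log2 fold change 1.61 and 0.94, edgeR adjusted p = 3.00e-11 and 9.61e-08). POU3F1, a POU factor of the neural plate, rose in Cond 2 from 40.5 to 82.3 TPM and was not called in Cond 3. NANOG fell from 45.9 ± 1.93 TPM to 22.9 ± 2.37 in Cond 2 and 10.5 ± 0.759 in Cond 3 (log2 fold change -1.09 and -2.16), in the same libraries in which SOX2 rose. FOXD3 fell in Cond 2 from 50.6 to 12.6 TPM and stood at 50.6 TPM in Cond 3.

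Among 12 genes known as targets of the OCT4 and SOX2 pair, 4 rose and 4 fell in Cond 2 (median log2 fold change -0.31) and 4 rose and 6 fell in Cond 3 (median -0.57). SOX2 itself is on this list. LEFTY1 fell from 7.67 TPM to 2.41 in Cond 2 and 0.411 in Cond 3, and TDGF1, a NODAL co-receptor, from 1299 to 490 and 689. LEFTY2 went the other way in Cond 2, where it was called higher, from 5.35 to 10.9 TPM. In Cond 3 it stood at 3.27 TPM. FGF4 rose from 0.579 to 1.87 and 1.96 TPM. Of the 18 primed pluripotent markers, 4 rose and 6 fell in Cond 2, and 7 rose and 7 fell in Cond 3. SOX2 is on this list too and is among those that rose in both media.

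Among neural progenitor genes, 16 of 20 were tested, of which 7 rose and 1 fell in Cond 2 (median log2 fold change 0.55) and 4 rose and 3 fell in Cond 3 (median 0.12). The largest values in Cond 2 were those of anterior factors. LHX5 had 334, 244 and 207 TPM there against 4.27, 10.2 and 9.36 in Cond 1, and SIX3 had 209, 155 and 109 against 0.736, 2.34 and 4.09. Replicate 1 of Cond 2, the library with the highest SOX21 and the lowest SOX3, was also the highest in these genes and the lowest of Cond 2 in NANOG. Without this library SOX21 and SOX3 were still called in Cond 2, at log2 fold changes of 1.67 and -0.35. PAX6, the defining factor of human neuroectoderm, was at a mean of 0.045 TPM in Cond 1, 0.225 in Cond 2 and 0.083 in Cond 3. Its Cond 2 libraries all lay above those of Cond 1, at 14 to 37 counts against 0 to 10. HES5 had 0 counts in Cond 1, Cond 2 and Cond 3.

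Of 15 neurogenic and neuronal genes, 10 were tested, of which 8 rose and 0 fell in Cond 3 (median log2 fold change 0.77), against 3 and 2 in Cond 2 (median 0.26). STMN2, a microtubule regulator of neurons, went from 0.978 TPM in Cond 1 to 4.40 in Cond 2 and 12.9 in Cond 3. DCX fell to 1.07 TPM in Cond 2 and rose to 5.85 in Cond 3, from 1.97 in Cond 1. The proneural factors NEUROG1, NEUROG2 and NEUROD1 were below 1 TPM in every condition.

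In the cartilage program of SOX9, 11 of 14 genes were tested, with 2 higher and 1 lower in Cond 2 and 4 higher and 2 lower in Cond 3. The 3 of 11 called in Cond 2 lie near the 20.9% of all genes tested. COL11A1 rose from 7.53 to 22.7 TPM in Cond 3 and CNMD from 255 to 564, while COL2A1, the classic SOX9 target, fell from 25.1 to 12.7 TPM in Cond 2 and 6.80 in Cond 3. Of 15 neural crest genes 11 were tested, of which 4 rose and 3 fell in Cond 2 and 1 rose and 2 fell in Cond 3. In Cond 3 this is a smaller share than the 38.4% of all genes tested. In Cond 2 those that rose included TFAP2A, from 0.142 to 4.25 TPM, MSX2, from 0.767 to 3.38, and NGFR, the low-affinity neurotrophin receptor, from 26.4 to 39.8. The MSX2 libraries overlapped, with 0.326, 0.286 and 1.69 TPM in Cond 1 and 6.14, 1.65 and 2.33 in Cond 2. FOXD3, ETS1 and EDNRB fell in Cond 2, ETS1 from 25.9 to 10.2 TPM and EDNRB from 2.37 to 1.44. PAX3, PAX7, SNAI2 and TFAP2B were below 1 TPM throughout.

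Markers of other cell types moved with the media too. Of 9 tested surface ectoderm and trophoblast markers 7 rose and 1 fell in Cond 2, and 4 rose and 1 fell in Cond 3. Those that rose in Cond 2 included GATA3, from 0.268 to 7.46 TPM, and TFAP2A, which is also on the neural crest list. TP63 and CGA had 0 counts in all Cond 2 libraries. The summed TPM of all 15 surface ectoderm and trophoblast genes was 380 to 440 in Cond 1, 322 to 361 in Cond 2, 231 to 250.5 in Cond 3 and 331 to 406 in Cond 4. Most of this sum was KRT18, a keratin and the 1 gene of the list called lower, with means of 356, 248, 183 and 322 TPM in Cond 1 to Cond 4. Of 8 tested mesenchyme and fibroblast markers 0 rose and 3 fell in Cond 2, and 4 rose and 1 fell in Cond 3, among them COL1A1, from 246 to 436 TPM in Cond 3. DCN, PRRX1 and FAP had 0 counts in Cond 2 and in Cond 3, as did DCN and FAP in Cond 1. The summed TPM of all 12 was 425 to 457 in Cond 1, 267 to 315 in Cond 2, 590 to 627 in Cond 3 and 385 to 409 in Cond 4. Most of this sum was COL1A1, COL1A2 and THY1, at 246, 47.0 and 141 TPM in Cond 1. In Cond 3 THY1 fell to 48.9 TPM while COL1A2 rose to 109.8. Of 5 tested mesendoderm markers 2 rose in Cond 2 and 3 in Cond 3. HHEX rose from 0.956 TPM in Cond 1 to 13.5 in Cond 2 and 3.23 in Cond 3, and CXCR4 from 0.963 to 3.97 and 2.32. The summed TPM of all 12 was at most 27.8, with FOXA2 and GATA4 at 0 counts in Cond 1, Cond 2 and Cond 3. The part of such cells in the SOX values was not tested. In Cond 4 against Cond 1, 0 genes of any of these lists were called.

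**Figure D5:**
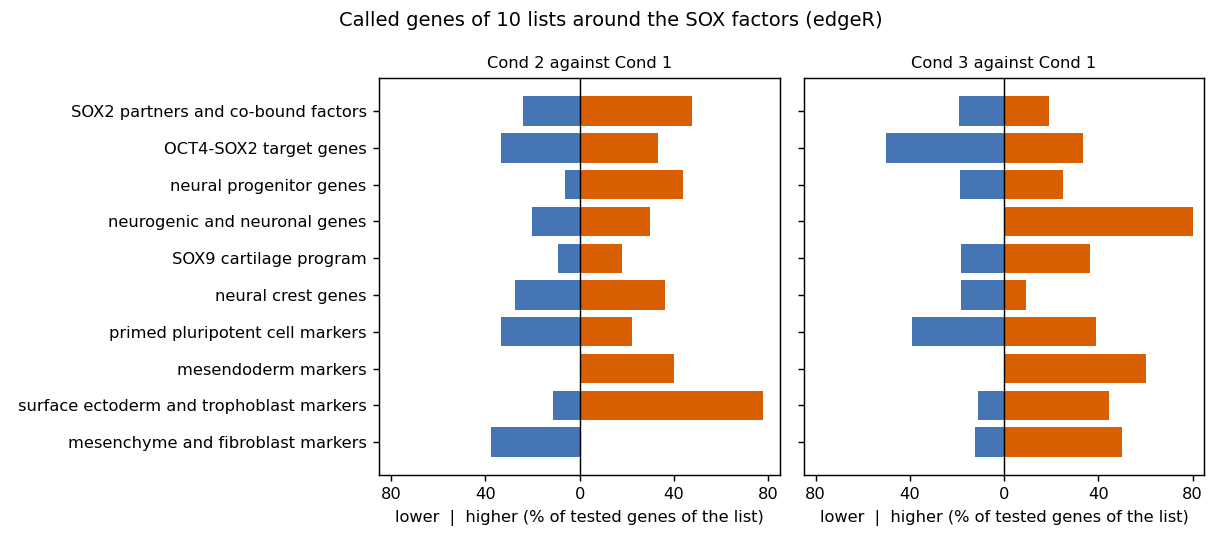
Percentage of the tested genes of 10 lists called higher (right, orange) or lower (left, blue) by edgeR in Cond 2 and Cond 3 against Cond 1. In Cond 3 the neurogenic and neuronal genes had 8 of 10 higher and 0 lower, and in Cond 2 the surface ectoderm and trophoblast markers had 7 of 9 higher.

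The genes nearest to each called SOX gene were found by the Euclidean distance of 3 log2 fold changes, those of Cond 2, Cond 3 and Cond 4 against Cond 1. Candidates were the 16397 tested genes with a mean of at least 1 TPM in some condition. As these comparisons share the control libraries, the distance is a description of 12 libraries. SOX2 lay nearest to INPP5K (distance 0.026), AC048341.1 and KIF5C, a motor protein of neurons. SOX3 lay nearest to SLC38A5, an amino acid transporter (0.053), MEG9 and ADCK2. SOX4 had AC104461.1 (0.064), C14orf39 and AL109976.1, and SOX9 had F10, a clotting factor (0.052), KIAA0895 and GPR182. SOX11 had PTCH1, the Hedgehog receptor (0.045), PDCL3P3 and AL133268.1. SOX13 had EIF4A1P10 (0.013), SPINDOC and FXR2. SOX15 had KRT17 (0.098), ZFHX4 and, farther off, SMAD6 (0.211). SOX21 had CCDC177 (0.1003), MCC and, farther off, CXCR4 (0.226), a chemokine receptor at 0.963 TPM in Cond 1.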

How the data were processed

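RNA-Seq of 12 libraries, 3 per condition, was analysed. According to the methods and the processing notes of the submitters, reads were trimmed with cutadapt 4.1 and fastp 0.20.1, aligned to GRCh38 with HISAT2 2.1.0 and counted on genes with featureCounts. The authors deposited these counts as whole numbers without normalization. The authors also deposited TPM values, in which each count is set relative to gene length and to the library. The settings for strand and for reads with several matches are not given in the sources used here. Of 58580 data lines of the count table, 5 held no whole gene row and were left out, and 2042 genes of the TPM table had no count row.

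For the tests, edgeR 4.0.16 (R 4.3.3) was run on the counts with its quasi-likelihood method, TMM normalization, its filter on low counts and a single fit over the 4 conditions without a replicate block. P-values were adjusted by Benjamini-Hochberg over 17747 genes, and genes with an adjusted p-value under 0.05 were called. The SE is the log2 fold change divided by the square root of the F statistic, and 95% intervals use the degrees of freedom of the fit. Levels are TPM, which can be compared between genes, with the mean ± SD of 3 libraries. The fit was also run on simulated counts, with the same dispersion for every gene and changes placed only in genes at or above the median level. That run does not cover changes in genes below this level or the spread of the real libraries. The members and lists were chosen with earlier results of these data known.

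All 9 members, 10 other SOX genes, and genes overlapping a member or named after one were described. From each other list and comparison, up to 3 called genes with the largest changes in each direction could be named, at a mean of at least 1 TPM in one condition, beside POU5F1, NANOG and PAX6, and the 3 nearest genes of each called member. Markers named for levels near 0, POU5F1P3, POU5F1B, LIN28A and DPPA4 were chosen after their values were seen. Alternatives were DESeq2 1.42.0, upper-quartile normalization and DESeq2 size factors in edgeR, no filter, a minimum of 1 TPM in every library, limma 3.58.1 on log2(TPM + 1) and log2(TPM + 0.1), the 6 libraries compared alone, a replicate block, leaving out each replicate, a fold change above 2, and CPM for levels. Annotation came from GENCODE release 44 and promoters from RefSeq.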

Additional observations from a re-analysis of the deposited data

How the results depend on the processing

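Directions and calls were recomputed under 10 alternatives per comparison and without each replicate. A reversal of sign occurred only in differences that were never called: SOX9 in Cond 4 against Cond 1 (-0.0093 without Cond 1 replicate 2, within a range of -0.0093 to 0.283 over the replicates left out) and SOX2 in Cond 3 against Cond 2 (-0.046 with limma at either pseudocount and -0.0057 without Cond 2 replicate 3, within a range of -0.0057 to 0.025). With limma on log2(TPM + 1) or log2(TPM + 0.1), 1 member was lower in Cond 2, 1 lower in Cond 3, and 1 higher in Cond 3 when set against Cond 2, where log2(TPM + 0.1) left 1 lower, without SOX15 (-0.68) and SOX21 (-0.51). The cause was not tested. Leaving out a replicate gave 1 to 2 members lower in Cond 3, 1 without Cond 1 replicate 1 or 3 or Cond 3 replicate 2 or 3, each time through SOX13. With a fold change above 2 required, 2 were higher and 0 lower in Cond 2, 2 higher and 1 lower in Cond 3, and 1 higher and 0 lower in Cond 3 against Cond 2. In Cond 2, SOX9 passed this fold without Cond 1 replicate 3 (1.07) and SOX11 without Cond 2 replicate 3 and with limma on either scale, and SOX15 missed it without Cond 1 replicate 1 (0.86) or Cond 2 replicate 1 (0.87).

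Replicate numbers did not pair the libraries, as deviations from the group means correlated between -0.046 and 0.089 for equal numbers. With the replicate block the members gave the counts of the fit without it, 5 higher and 2 lower in Cond 2 and in Cond 3, and the block called 1944 genes higher and 1806 lower in Cond 2 against 1911 and 1790. Over all genes, limma on log2(TPM + 1) called 1857 higher and 889 lower in Cond 2, or 67.6% higher against 51.6% in edgeR, and with log2(TPM + 0.1) 993 and 609. In Cond 3 log2(TPM + 0.1) called 2183 and 1613 against 3468 and 3343, and 1786 and 2270 against 3366 and 3411 in Cond 3 against Cond 2. In Cond 4, edgeR called 4 and 1, DESeq2 9 and 8, and edgeR without a filter 27 and 25. At 0 to 16 counts per library, SOX1 lay at or near the limit of detection of this depth.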
